A study of Homo sapiens with 2 samples.

Results

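The genes described here make cholesterol, take it up and export it, and they were compared between NUGC4 cells (a line from a human gastric cancer) given an siRNA against ANO5, which encodes the membrane protein anoctamin 5, and NUGC4 cells given a negative control siRNA. Members were chosen by name, with earlier results of these data known: 27 genes were listed, 25 of them had a named transcript cluster (the probe group by which the array reads a gene) among the 14526 named genes, and the signals of FDFT1 and MYLIP were not analysed here. Each siRNA was used at 20 nmol/l, with transfection 24 h after seeding, both cultures grew in serum-containing medium, and each group was 1 RNA sample read on 1 array. There is thus no replicate spread and no test, and every difference compares these 2 RNA samples. A single siRNA against ANO5 was used, so that an effect of lower ANO5 and an effect of this siRNA on other transcripts cannot be told apart.

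Cholesterol is built in the endoplasmic reticulum and cytosol from acetyl-CoA. The early steps lead through mevalonate to farnesyl pyrophosphate, which also feeds the isoprenoid branch, and the late steps lead from squalene through lanosterol to cholesterol. When membrane sterol is low, SCAP escorts the SREBP transcription factors to the Golgi, where they are cut and released to induce the synthesis enzymes, whereas INSIG proteins hold SCAP back when sterol is plentiful. Oxysterols that build up with excess sterol activate the LXR receptors, which induce the exporters ABCA1 and ABCG1.

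SREBP factors are known to act through sterol regulatory elements and E-boxes near the starts of their target genes, so the RefSeq promoter windows (build GRCh38.p14, 250 bases before and 50 after each annotated start) were searched on both strands. Windows were given for 23 of the 27 genes, MYLIP included, and not for ACAT2, FDFT1, SQLE and ABCG1. The 5 windows printed are those of the members that differed by 2-fold or more between the arrays and had a window, and they include the window that held an exact sterol regulatory element. Each is written 5′ to 3′ on the strand of its gene. Capitals mark the sterol regulatory element TCACNCCAC with at most 1 mismatch, the CCAAT box (read as ATTGG on the other strand), which binds NF-Y, a partner of SREBP, and the E-box CACGTG.
SREBF2, chr22:41832855-41833154, plus strand: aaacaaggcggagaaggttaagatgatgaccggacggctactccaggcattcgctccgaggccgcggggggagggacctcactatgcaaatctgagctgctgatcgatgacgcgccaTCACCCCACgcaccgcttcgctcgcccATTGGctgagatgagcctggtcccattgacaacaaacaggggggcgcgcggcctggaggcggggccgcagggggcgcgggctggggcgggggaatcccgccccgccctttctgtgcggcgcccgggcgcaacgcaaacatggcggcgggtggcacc
HSD17B7, chr1:162790452-162790751, plus strand: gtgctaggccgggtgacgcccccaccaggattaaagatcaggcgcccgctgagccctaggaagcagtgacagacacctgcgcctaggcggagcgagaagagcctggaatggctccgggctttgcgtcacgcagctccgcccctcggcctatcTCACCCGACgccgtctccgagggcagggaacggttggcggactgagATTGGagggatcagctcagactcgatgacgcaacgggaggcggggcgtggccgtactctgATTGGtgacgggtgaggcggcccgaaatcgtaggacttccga
TM7SF2, chr11:65111622-65111921, plus strand: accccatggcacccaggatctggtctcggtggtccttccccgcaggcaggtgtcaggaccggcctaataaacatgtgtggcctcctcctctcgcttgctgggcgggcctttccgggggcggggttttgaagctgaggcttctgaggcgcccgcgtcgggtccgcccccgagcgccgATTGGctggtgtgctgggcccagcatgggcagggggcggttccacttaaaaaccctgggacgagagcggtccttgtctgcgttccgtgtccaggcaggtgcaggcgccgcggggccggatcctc
SCAP, chr3:47475892-47476191, minus strand: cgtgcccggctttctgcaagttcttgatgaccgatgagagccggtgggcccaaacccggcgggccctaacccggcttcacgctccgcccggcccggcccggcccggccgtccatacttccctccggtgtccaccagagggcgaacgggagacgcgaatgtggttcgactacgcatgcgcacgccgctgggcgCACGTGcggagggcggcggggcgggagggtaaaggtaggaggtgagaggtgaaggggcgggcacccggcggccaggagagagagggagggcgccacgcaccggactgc
STARD4, chr5:111512486-111512785, minus strand: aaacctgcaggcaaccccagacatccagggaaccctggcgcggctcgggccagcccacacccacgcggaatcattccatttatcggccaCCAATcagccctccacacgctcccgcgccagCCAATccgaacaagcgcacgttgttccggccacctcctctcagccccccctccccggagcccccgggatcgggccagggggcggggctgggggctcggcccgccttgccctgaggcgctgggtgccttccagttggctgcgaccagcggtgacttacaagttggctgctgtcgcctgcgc

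The SREBF2 window held the only exact sterol regulatory element among the 23 members with a window, from position -133 to -125 before the start, with a CCAAT box on the other strand from -106 to -102. Exact elements were found in 1.13% of all 35116 windows and in at least 1 window of 1.49% of the 8134 measured genes that had one. The HSD17B7 window held an element with 1 mismatch from -98 to -90 and CCAAT boxes at -52 and 9. TM7SF2 had a CCAAT box from -74 to -70, STARD4 had CCAAT boxes from -161 and from -130, and SCAP had an E-box from -58 to -53 and neither of the other marked motifs. No match says only that these letters are not in this window, and a match is a description of letters, not of binding.

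**Figure D1:**
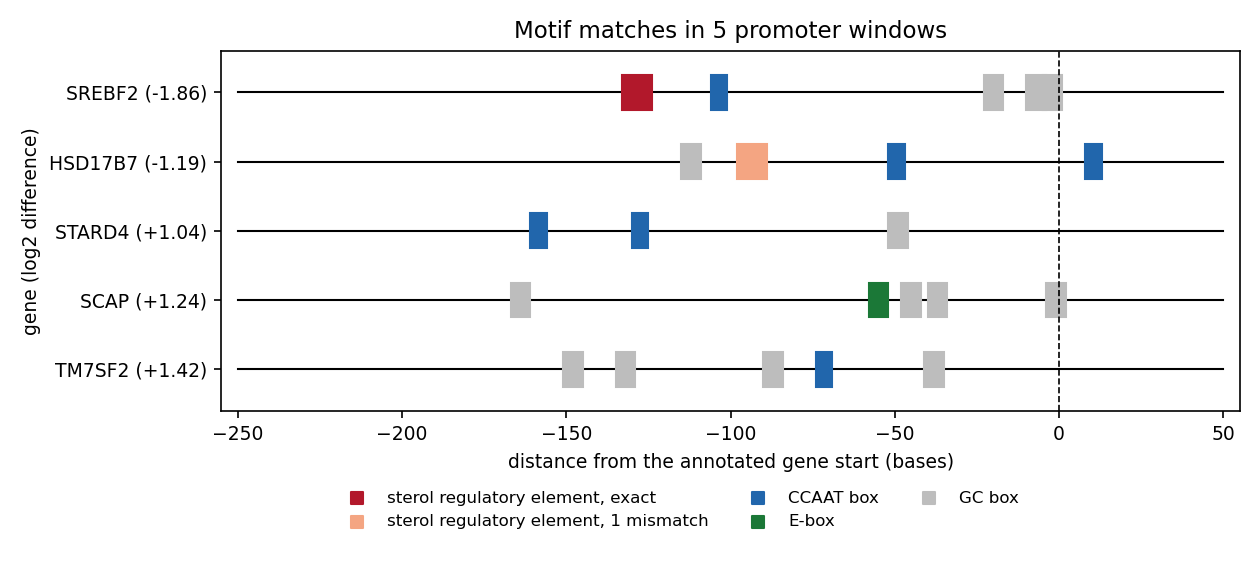
Motif matches in the promoter windows of the 5 printed genes, by distance from the annotated start in bases, with the log2 difference (ANO5 siRNA minus control siRNA) of each gene beside its name. SREBF2, at -1.86, has the exact sterol regulatory element, HSD17B7, at -1.19, has 1 with a mismatch, and STARD4, SCAP and TM7SF2, at 1.04 to 1.42, have none in their windows. The 5 genes were picked by the size of their differences. Over all measured members with a window, 6 of 9 lower by 1.5-fold had an element with at most 1 mismatch. So did 1 of 5 higher (SC5D) and 2 of 7 within 1.5-fold (IDI1 and DHCR7).

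CCAAT boxes were present in 17 of the 23 members with a window (73.9%), beside 34.6% of all windows and 44.0% of measured genes with a window. GC boxes (GGGCGG), which bind SP1, were present in 22 of 23, beside 15786 of the 35116 windows and 77.2% of measured genes. E-boxes were present in 5 of 23, beside 7.26% of windows and 13.0% of measured genes. The motif AGGTCA, to which nuclear receptors bind, was present in DHCR7 alone among the 23, beside 13.8% of windows and 13.7% of measured genes. The element with at most 1 mismatch was present in 10 of 23 (43.5%), beside 24.5% of windows and 30.3% of measured genes. Genes with several windows were counted once if any window matched, and a GC box can overlap another on either strand.

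ANO5 itself had a log2 signal of 3.67 on the ANO5 siRNA array, against 6.83 on the control array, a difference of -3.16, with a mean below the measured range. That range holds the 9735 genes whose mean over both arrays was at or above 6.05, the 33rd percentile of named genes. In cells given the ANO5 siRNA, 23.2% of them exceeded control by at least 1.5-fold (a log2 difference of 0.585) and 20.1% fell short of it by as much, and at 2-fold these shares were 11.2% and 11.3%. All 6 epithelial markers in the table were in the measured range (medians of 16.02 on the ANO5 siRNA array and 15.61 on the control array), as were 5 of 17 markers of fibroblasts, blood, endothelium and hepatocytes and 0 of the 4 hepatocyte markers. Among the 5, LYZ was lower by 1.08 and VWF differed by 0.52 on the log2 scale, and their part in the results was not tested.

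Of the 25 cholesterol genes, 23 lay in the measured range and the exporters ABCA1 and ABCG1 lay below it. Their differences ran from -2.94 (ACAT2) to 1.42 (TM7SF2). In cells given the ANO5 siRNA 10 of the 23 were lower by 1.5-fold or more (43.5%, beside 20.1% of all measured genes) and 5 were higher (21.7%, beside 23.2%). At 2-fold, 3 of the 23 were lower (ACAT2, SREBF2 and HSD17B7) and 3 higher (TM7SF2, SCAP and STARD4). Of all measured genes 11.3% were lower and 11.2% higher by 2-fold, so the members lay near these shares. The median difference was -0.21, beside 0.07 for all measured genes. As RNA of a whole culture was measured, fewer cells with a transcript and less of it per cell cannot be told apart.

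**Figure D2:**
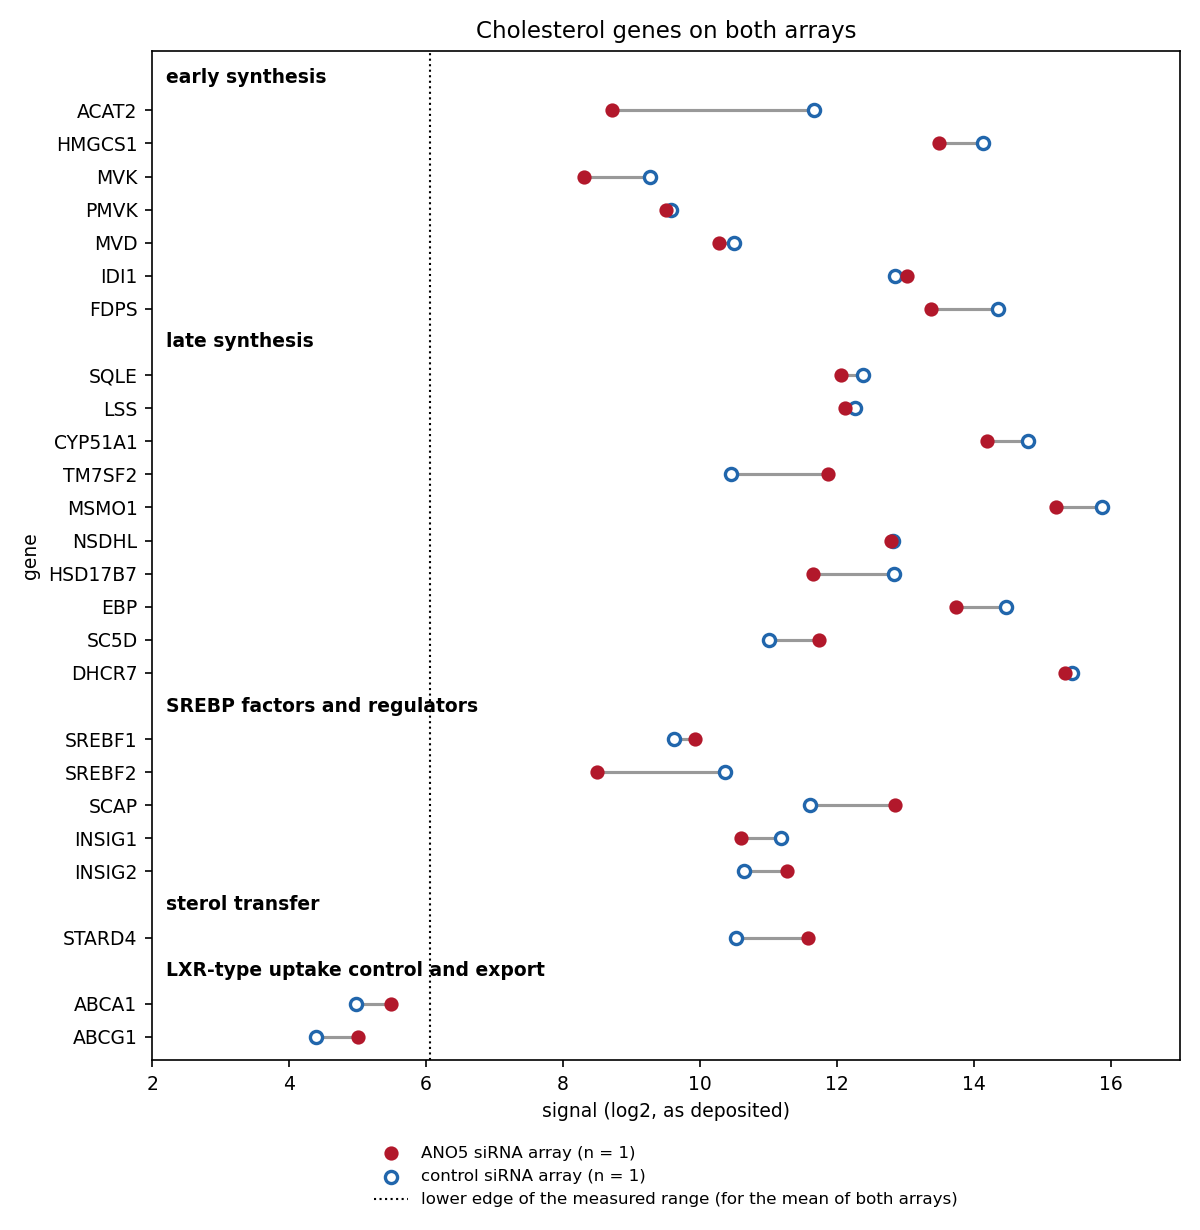
Deposited log2 signal of the 25 cholesterol genes on the ANO5 siRNA array (filled) and the control siRNA array (open), 1 array each, in pathway order. The widest gaps are those of ACAT2 (8.72 against 11.66) and SREBF2 (8.50 against 10.36), and both points of ABCA1 and ABCG1 lie left of 6.05.

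The early enzymes were lower or near level. ACAT2, the cytosolic thiolase that opens the pathway by joining acetyl-CoA units, had a log2 signal of 8.72 in cells given the ANO5 siRNA, against 11.66 in control cells, and was 7.67-fold lower. This was the lowest difference of any member, and 78 of the 9735 measured genes (0.801%) had one as low. HMGCS1, the synthase that makes HMG-CoA, had 13.48 on the ANO5 siRNA array and 14.13 on the control array (-0.65). MVK, the kinase that first phosphorylates mevalonate, had 8.31 on the ANO5 siRNA array and 9.27 on the control array (-0.96). FDPS, which makes farnesyl pyrophosphate, had 13.37 on the ANO5 siRNA array and 14.34 on the control array (-0.97). These 3 genes were thus lower by 1.57-fold to 1.96-fold. The steps between mevalonate phosphate and the isoprene units stayed within 1.5-fold. PMVK, the next kinase, had 9.50 in cells given the ANO5 siRNA and 9.58 in control cells (-0.08). MVD, the decarboxylase, had 10.28 in cells given the ANO5 siRNA and 10.49 in control cells (-0.21). IDI1, the isomerase, had 13.02 in cells given the ANO5 siRNA and 12.84 in control cells (0.18), and was the only early enzyme with a positive difference. In all, 4 of 7 early enzymes were lower by 1.5-fold (57.1%, beside 20.1% of all measured genes) and 0 were higher (beside 23.2%). At 2-fold only 1 of the 7 was lower (ACAT2) and 0 were higher, beside 11.3% and 11.2% of all measured genes.

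The late enzymes went both ways, with 4 of 10 lower (40.0%, beside 20.1% of all measured genes) and 2 higher (20.0%, beside 23.2%) by 1.5-fold. At 2-fold 1 of the 10 was lower and 1 higher, beside 11.3% and 11.2% of all measured genes. The entry into the sterol ring differed little: SQLE, the squalene epoxidase, had 12.05 in cells given the ANO5 siRNA and 12.37 in control cells (-0.32). LSS, which closes the ring to lanosterol, had 12.12 in cells given the ANO5 siRNA and 12.26 in control cells (-0.14). CYP51A1, the lanosterol demethylase and a member of the cytochrome P450 family too, had 14.19 in cells given the ANO5 siRNA and 14.78 in control cells, and its difference of -0.59 lies next to the 1.5-fold limit.

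The next steps reduce and demethylate the sterol. TM7SF2, a sterol reductase, had 11.87 in cells given the ANO5 siRNA, against 10.45 in control cells, and was 2.68-fold higher, the highest of all members. Of the measured genes 473 (4.86%) had a difference as high. LBR, a nuclear membrane protein with the same reductase activity, was measured outside the members at 11.31 in cells given the ANO5 siRNA and 11.82 in control cells (-0.51), and is named after its values were seen. The reductase pair therefore differed in sign.

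The complex that removes the methyl groups at C-4 was lower in part. MSMO1, its oxidase, had 15.19 in cells given the ANO5 siRNA and 15.87 in control cells (-0.68). NSDHL, its dehydrogenase, had 12.79 in cells given the ANO5 siRNA and 12.81 in control cells (-0.02). HSD17B7, its ketoreductase, had 11.64 in cells given the ANO5 siRNA and 12.83 in control cells, and was 2.28-fold lower. HSD17B7 was the lowest of the late enzymes, while NSDHL was the least changed of all 25 genes. ERG28, known in yeast as the scaffold of this complex and not itself a member, had 14.23 in cells given the ANO5 siRNA and 15.09 in control cells (-0.86).

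The closing enzymes differed from one another. EBP, which shifts the ring's double bond, had 13.73 in cells given the ANO5 siRNA and 14.46 in control cells (-0.73). SC5D, the desaturase that acts on the product of EBP, had 11.73 in cells given the ANO5 siRNA and 11.01 in control cells (0.72). DHCR7, the reductase that makes cholesterol from 7-dehydrocholesterol, had 15.33 in cells given the ANO5 siRNA and 15.42 in control cells (-0.09). EBP and SC5D, adjacent steps, thus had differences of like size and opposite sign.

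Early and late steps compared by their medians gave -0.65 for the 7 early enzymes and -0.23 for the 10 late ones, a difference of -0.42. The spread over genes was wide, with an SD of 1.04 among early and 0.76 among late enzymes, and the ranges overlap (-2.94 to 0.18 and -1.19 to 1.42). Without ACAT2 the early median was -0.43 and the difference from the late one -0.20, a setting added after the values were seen. With 1 array a group this difference has no test.

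Regulators of the pathway had differences of opposite sign within each pair of paralogues. SREBF2, which encodes SREBP2, the factor that mainly drives cholesterol synthesis, had 8.50 in cells given the ANO5 siRNA, against 10.36 in control cells, and was 3.63-fold lower. Of the measured genes 388 (3.99%) had a difference as low. SREBF1, whose products mainly drive fatty acid synthesis, had 9.93 in cells given the ANO5 siRNA and 9.62 in control cells (0.31), within 1.5-fold. SCAP, the escort of both factors, had 12.85 in cells given the ANO5 siRNA, against 11.61 in control cells, and was 2.36-fold higher. Thus the factor and its escort differed by over 2-fold in opposite directions.

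INSIG1, a retention protein that is itself an SREBP target, had 10.59 in cells given the ANO5 siRNA and 11.18 in control cells (-0.59). INSIG2, its paralogue, had 11.26 in cells given the ANO5 siRNA and 10.64 in control cells (0.62). Both lie close to the 1.5-fold limit, and INSIG2 lay within it after quantile normalization (0.58) and after a loess fit on the mean level (0.50). The median of the 5 regulators was 0.31 and their mean -0.06, so the group has no common direction.

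STARD4, a carrier that moves sterol between membranes, had 11.57 in cells given the ANO5 siRNA, against 10.53 in control cells, and was 2.06-fold higher. Of the measured genes 1007 (10.3%) had a difference as high. STARD4 is known as an SREBP target, and its direction was opposite to that of SREBF2, HMGCS1 and INSIG1. A part of SREBP in these differences was not tested. The synthesis enzymes were not all lower. Of the 17 measured, 8 were lower by 1.5-fold (47.1%, beside 20.1% of all measured genes) and 7 stayed within it. TM7SF2 and SC5D were higher, as STARD4 was (2 of 17, 11.8%, beside 23.2%). At 2-fold 2 of the 17 were lower and 1 higher, beside 11.3% and 11.2% of all measured genes.

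The exporters gave low signal on both arrays. ABCA1, which loads cholesterol onto lipid-poor apolipoproteins, had 5.49 in cells given the ANO5 siRNA and 4.97 in control cells (0.52). ABCG1, which passes cholesterol to lipoprotein particles, had 5.00 in cells given the ANO5 siRNA and 4.39 in control cells (0.61). Both differences are positive, but 24.4% of all clusters had a signal as low as ABCG1 or lower on the ANO5 siRNA array and 14.7% on the control array, and for ABCA1 these shares were 30.4% on the ANO5 siRNA array and 24.0% on the control array. With a pseudocount of 16 added before taking logs the difference of ABCG1 was 0.38. No call is given for either gene.

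**Figure D3:**
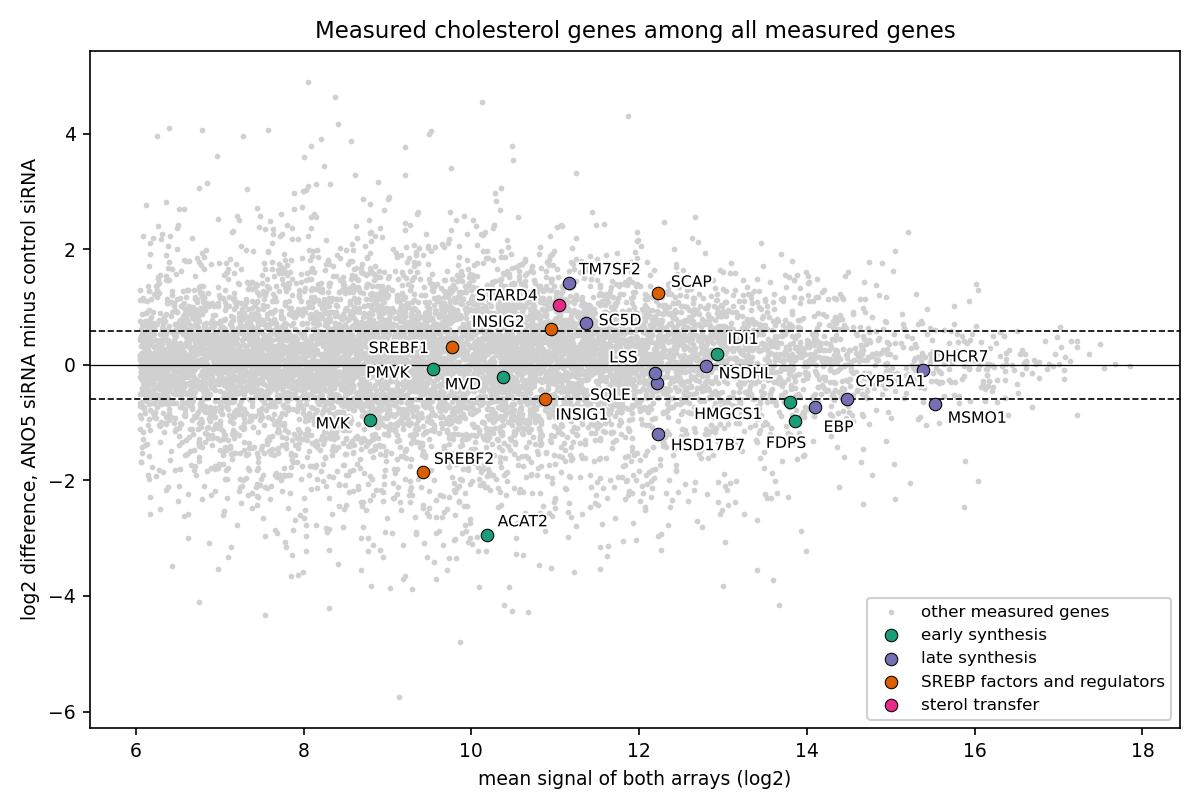
Log2 difference (ANO5 siRNA minus control siRNA) against the mean log2 signal of both arrays for the 9735 measured genes, with the 23 measured cholesterol genes coloured by role and dashed lines at 1.5-fold. The members lie within the cloud of all measured genes, with ACAT2 at -2.94 and TM7SF2 at 1.42 as their extremes.

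The motifs were set beside the calls after the values were seen, as counts with no test. The sterol regulatory element with at most 1 mismatch was in the windows of 6 of 9 members that were lower by 1.5-fold (MVK, FDPS, MSMO1, HSD17B7, SREBF2 and INSIG1), 1 of 5 that were higher (SC5D) and 2 of 7 within 1.5-fold (IDI1 and DHCR7). CCAAT boxes were in 8 of 9 lower members, 3 of 5 higher and 5 of 7 within. E-boxes were in 1 of 9 lower members, 2 of 5 higher and 1 of 7 within. GC boxes were in 9 of 9 lower members, 5 of 5 higher and 6 of 7 within. Among measured genes with a window, the element with at most 1 mismatch was in 30.3% and a CCAAT box in 44.0%. The shares were 13.0% for the E-box and 77.2% for the GC box. With a mismatch allowed, the element is a common string, so these counts describe letters and not binding sites.

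Other genes of sterol and lipid handling were taken from 9 lists. Of 133 listed genes 102 were in the table and 84 in the measured range, where they were counted at 1.5-fold and read beside 23.2% higher and 20.1% lower of all measured genes. Of 3 further genes tied to sterol or ketone synthesis, 1 was lower (ERG28) and 0 higher, with a median difference of -0.51. ACAT1, the mitochondrial thiolase, named after its values were seen, had 12.06 in cells given the ANO5 siRNA and 12.29 in control cells (-0.23), beside -2.94 for the cytosolic ACAT2. In the isoprenoid branch, which uses farnesyl pyrophosphate for other products, 4 of 10 were lower and 2 higher. GGPS1, which makes geranylgeranyl pyrophosphate, had 7.45 in cells given the ANO5 siRNA and 9.06 in control cells (-1.61), and COQ2, an enzyme of ubiquinone synthesis, differed by -1.19. NUS1 (0.98) and DHDDS (0.73), the subunits of the enzyme that makes dolichol chains, were both higher.

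Fatty acid synthesis genes, many of them SREBP1 targets, stood near level. Only 1 of 14 was lower by 1.5-fold (SCD5, at -0.60) and 0 were higher, and the median was -0.12. FASN, the fatty acid synthase, had 12.06 in cells given the ANO5 siRNA and 12.20 in control cells (-0.14), and SCD, the main desaturase, differed by -0.10. FASN and SCD are named after their values were seen.

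Genes that process SREBP or sense sterol had 5 of 14 higher and 2 lower, with a median of 0.36. SPRING1, which is needed for the protease that cuts SREBP, had 11.20 in cells given the ANO5 siRNA and 9.79 in control cells (1.41). FBXW7, the ubiquitin ligase subunit that targets mature SREBP for breakdown, was higher by 1.37. PAQR3, a Golgi protein that anchors SCAP, differed by -1.28 and TMEM97, a sterol-regulated membrane protein, by -0.63.

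Lipoprotein receptors and endocytic adaptors had 6 of 9 higher (66.7%) and 0 lower, with a median of 0.88. LRP1, a large endocytic receptor, had 9.11 in cells given the ANO5 siRNA and 7.24 in control cells (1.87). LRP10, a related receptor, had 13.29 in cells given the ANO5 siRNA and 11.78 in control cells (1.51). The lowest of the 9 differed by 0.32, so all were on the positive side.

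Intracellular sterol transport had 9 of 18 higher and 4 lower, with a median of 0.56. GRAMD1C, of a family of sterol carriers at membrane contacts, had 11.06 in cells given the ANO5 siRNA and 9.84 in control cells (1.22). LIPA, the lysosomal lipase that frees cholesterol from its esters, was higher by 1.18. TMEM41B, a lipid scramblase of the endoplasmic reticulum, and OSBPL10, an oxysterol-binding protein homologue, differed by -0.93 and -0.91. Over all 21 genes in the table the median was 0.36. Of 3 measured esterification genes 1 was higher (PLA2G15, at 1.06) and 0 lower, with a median of 0.38, but over all 7 in the table the median was 0.03.

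LXR receptors, partners and targets had 5 of 10 higher and 1 lower, with a median of 0.58. This median depended on the filter, at 0.18 over all 14 genes in the table and 0.14 with the filter at the 50th percentile, where 2 of 6 were higher. The 5 higher genes included the partners NCOA1 (1.65) and NCOA2 (1.47), so not all of them are targets. The receptor NR1H3 (-0.05) and the partner RXRB (0.01) stayed within 1.5-fold. TTC39B, a gene tied to LXR turnover in mice, had 9.95 in cells given the ANO5 siRNA and 7.65 in control cells (2.30). SMPDL3A, an LXR target, had 7.96 in cells given the ANO5 siRNA and 6.20 in control cells (1.76). LPCAT3, a phospholipid-remodelling enzyme that LXR also induces, had 11.76 in cells given the ANO5 siRNA and 12.91 in control cells (-1.15). Known LXR targets thus lay on both sides. All 3 measured genes of the list of oxysterol and bile acid enzymes were higher, by 0.93 to 1.32, and the other 3 in the table lay below the measured range. One of these, CYP39A1, an oxysterol hydroxylase named after its values were seen, had 3.87 in cells given the ANO5 siRNA and 5.62 in control cells (-1.75), and over all 6 the median was 0.70. Among the measured genes were EPHX1, an epoxide hydrolase (1.32), and SULT2B1, a sterol sulfotransferase that was 2.38-fold higher.

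**Figure D4:**
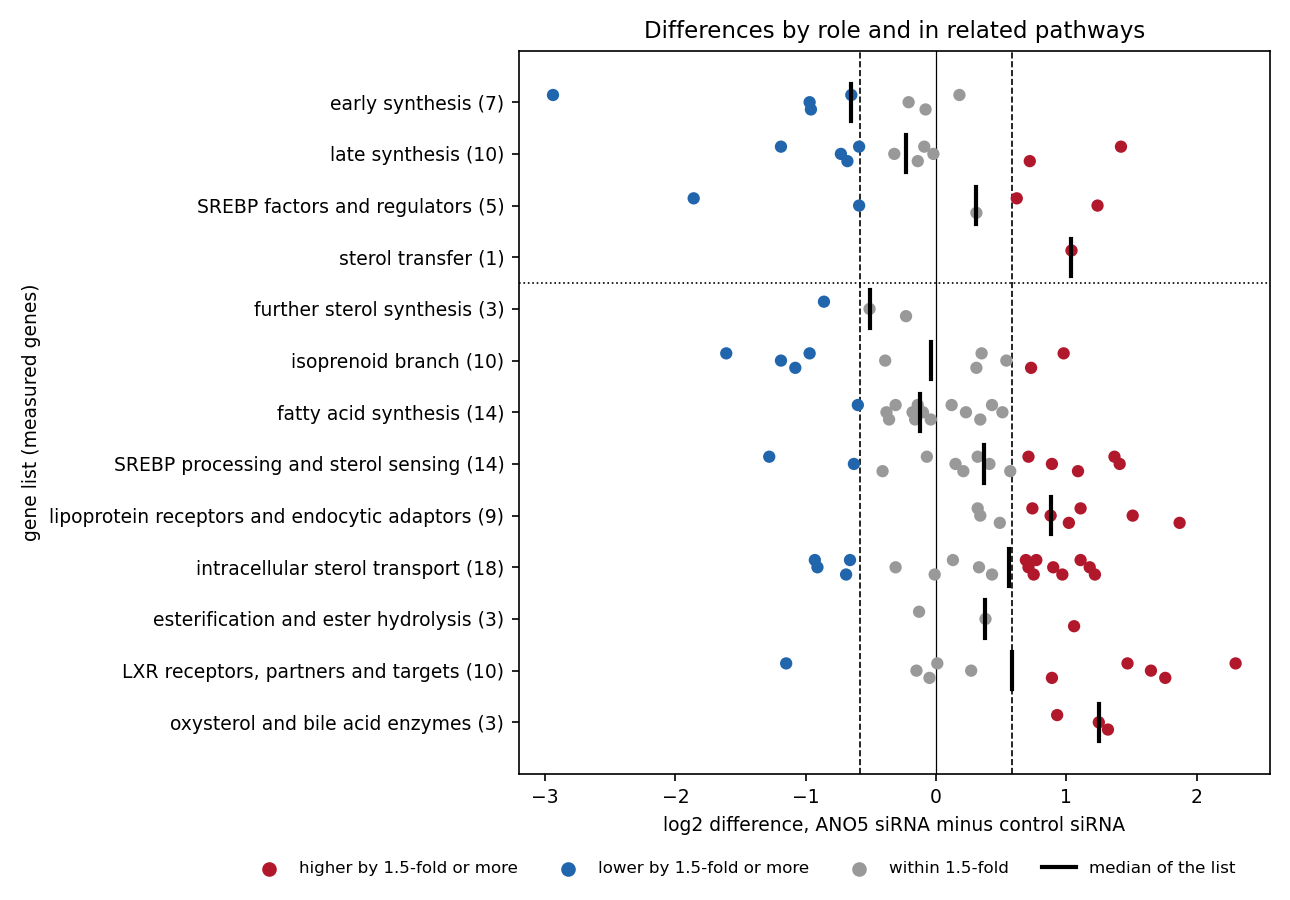
Log2 difference (ANO5 siRNA minus control siRNA) of every measured gene by role (above the dotted line) and in 9 related lists (below it), with dashed lines at 1.5-fold and a bar at each median. The early enzymes have their median at -0.65 and the fatty acid synthesis genes at -0.12, while the 9 lipoprotein receptors and adaptors all lie to the right of 0, with a median of 0.88.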

How the data were processed

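The table deposited by the authors covers 17345 transcript clusters on both arrays, and its values were read as log2 signal from their range (2.13 to 18.15). Agilent Feature Extraction (12.0.3.1) is the only tool in the submitters' processing notes, whereas the identifiers look like those of a different manufacturer. How probes were summarised, corrected for background and normalized, and the log base and build, was not given in the sources used here. The array medians were 7.68 (ANO5 siRNA) and 7.69 (control siRNA), and the 75th percentiles over named genes differed by 0.02, so values were used as deposited. No detection call was used, so a fold against a value near background may be a lower bound. The number of arrays limits the precision.

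The platform's annotation gave 1 symbol to 14544 clusters and none to 2801, and all 25 members found matched a current gene record by Entrez identifier. Per gene the cluster with the highest mean was kept, and no member had more than 1. Differences are ANO5 siRNA minus control siRNA, and a gene counted as higher or lower at 1.5-fold or 2-fold. Named genes were all members, ANO5, and up to 2 measured genes each way past 1.5-fold from each further list. LBR, ACAT1, FASN, SCD, CYP39A1, NCOA1, NCOA2, NR1H3, RXRB, LYZ and VWF fall outside this rule and are named after their values were seen. Members and lists were chosen with earlier results of these data known. Promoter windows came from RefSeq (GRCh38.p14). The counts were run on simulated data with planted differences far larger than the added noise, and the motif search on a planted exact string. Recovery was thus fixed in advance, so these runs check the code alone. The search with 1 mismatch was not among them. Alternatives were 4 scalings, a pseudocount, the median over clusters, 3 other filters, other folds and the mean. Python 3.11.15, numpy 2.4.6, pandas 2.3.3 and statsmodels 0.14.6 were used.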

Additional observations from a re-analysis of the deposited data

How the results depend on the processing

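No paired analysis was possible because each group is 1 array, and no replicate could be left out. Across 4 scalings, a pseudocount, the median over clusters and 3 filters, the count of lower members was 10 in each and that of higher members 4 to 6. Both counts became 3 of 23 at 2-fold, beside 11.3% lower and 11.2% higher of all measured genes. The medians of all members, of the early and late enzymes and of the regulators kept their sign under these alternatives. The late median moved to -0.37 after loess. Means in place of medians gave -0.80 for the early enzymes, -0.64 for early minus late and -0.06 for the regulators, whose median is 0.31. Leaving out ACAT2, chosen after seeing the data, gave an early median of -0.43 and -0.20 for early minus late. Of 148 values of single members under 6 alternatives, 145 stayed on the same side of a 1.5-fold difference as the deposited values did. The other 3 were those of INSIG2 and of ABCG1, which lies below the measured range and was given no call. Centring and the median over clusters could move no member, so this count is a weak check. Counting FDFT1 as early could not be run.

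The same 9 alternatives, added after seeing the data, changed the sign of the isoprenoid median, which was -0.04 and became 0.31 without a filter. The count of higher genes in the LXR list was 2 of 6, in place of 5 of 10, with the filter at the 50th percentile, and its median 0.14. The medians of the other lists kept their sign, but without a filter those of esterification (0.03), sterol transport (0.36), the LXR list (0.18) and the oxysterol and bile acid list (0.70, with 1 gene lower) were smaller. The lone lower gene of fatty acid synthesis was within 1.5-fold with the pseudocount. After loess the median of further sterol synthesis was -0.65, with 2 of 3 lower in place of 1. The isoprenoid median was then -0.16, that of SREBP processing 0.24 and that of lipoprotein receptors 0.76. With the filter at the 50th percentile the median of sterol transport was 0.73.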
